A study of Rattus norvegicus with 4 samples.

Results

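Gene expression in the left ventricle of rats with terminal heart failure was compared with that of a Sprague Dawley control (SD control). The comparison used 2 of the 4 samples of the study, chosen by their titles, with 1 array on each side and no replicates. All 8740 probe sets that are not hybridisation controls entered it, of 8799 on the array. The study's other arrays were 1 of dTGR, rats that overexpress human renin and human angiotensinogen, and 1 of dTGR given losartan, which blocks the main receptor of angiotensin II. Total RNA was measured on a 1-colour oligonucleotide array of the rat genome. The title of the terminal sample names no genotype or strain, and that of the SD control names the strain alone. All 4 samples, the control included, carry 1 shared description of the transgenic rat, which becomes hypertensive, loses protein in its urine and dies after 7 weeks. Age, sex, losartan dose, the promoters of the transgenes, the number of animals behind an array and any pooling are not stated by these sources.

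Renin cuts angiotensinogen to angiotensin I, which the converting enzyme turns into angiotensin II, a peptide that constricts vessels and promotes growth of the heart muscle. An overloaded heart is known to thicken, to make natriuretic peptides and other proteins of the fetal ventricle, to deposit matrix, and to take less of its energy from fatty acids. In the failing stage, inflammation, cell stress and hormonal signals from the whole body act on it as well. The array's probe sets are for rat transcripts, so they do not read the human transgenes. Agt, the rat's own angiotensinogen gene, was at 39.1 in SD control and 39.6 in terminal heart failure.

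Values are intensities on a linear scale, and a value under 26.0, the 40th percentile over the 4 arrays, was treated as not measured and set to that floor. Each gene is represented by its brightest probe set. Where 1 of both values is under the floor, the fold is a lower bound and is written as "at least". With 1 array per group there is no error between replicates and no test, and each difference below is a size only. The terminal array alone was run on its day, so its contrast with all other arrays cannot be told apart from run day. It shared its chip lot with the losartan array, and the SD control array shared its lot with dTGR. The arrays of terminal heart failure and SD control came from different chip lots and were run on different days, so a difference of lot or day cannot be told apart from the group. Their trimmed mean intensities were both 200.2, 58.2% and 59.1% of probe sets were above the floor, and the ratios of 3' to 5' signal were 1.28 and 1.35 for Gapdh and 1.63 and 1.46 for actin. The Spearman correlation between both arrays was 0.906 over 8740 probe sets, against 0.859 to 0.92 for the other pairs of arrays. For Gapdh and actin the ratios of 3' to 5' signal were higher on the dTGR array (1.73 and 2.07) and the losartan array (2.17 and 2.26). The dTGR array alone was run with a different fluidics protocol. The part of either in the dTGR and losartan values given below was not tested.

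The ventricle in terminal heart failure had higher signal for secreted acute phase proteins, with 7 of 13 genes at least 2-fold above control, for immediate early genes (10 of 28) and for macrophage markers (5 of 8). It had lower signal for antigen presentation, with 8 of 18 genes at least 2-fold below control, and for interferon induced genes (4 of 13). Among genes measured on both arrays with no probe set of the other sign, Reg3b, Hspa1a, Lcn2 and Timp1 were furthest above control, from 12.5-fold to 93.4-fold. Eno3, Col15a1 and Mx2 were among those furthest below it, from 4.38-fold to 6.31-fold. Of 12 contraction genes 1 (8.33%) was at least 2-fold higher and 0 lower. These counts stand against a background, over all 3371 genes that passed the floor on either array, of 215 (6.38%) at least 2-fold higher and 283 (8.4%) at least 2-fold lower. The same shares are the background of every list count below, and a count near them is not a result about that list. The lists were chosen with earlier results of these data known, so a count above the background is not independent evidence either. Of the 5679 probe sets above the floor, including those without a gene name, 437 (7.7%) were higher and 489 (8.61%) were lower. Higher genes made up 43.2% of the 2-fold differences, a share that became 57.5% (280 higher, 207 lower) after cyclic loess normalization, which moved the median of all genes from -0.14 to -0.02 on the log2 scale.

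The differences were unequal in size. At 2-fold there were fewer higher genes than lower ones, but at least 4-fold there were 52 higher and 25 lower, and at least 10-fold 10 higher and 1 lower. When the genes were ordered by level and cut into 4 groups of equal size, lower genes outnumbered higher ones in all but the brightest group, where 58 were higher and 45 lower. A majority, 64.4%, differed by less than 1.5-fold, and the 5th and 95th percentiles of the log2 difference were -1.24 and 1.15. Of 165 genes past 2-fold that had another probe set above the floor, all other probe sets had the same sign in 138 (83.6%). The same held for 508 of 820 genes (62.0%) that were short of 2-fold. The log2 differences given by probe sets of the same gene had a pooled SD of 0.51 over 791 genes, from probe sets above the floor on both arrays. It measures how far such differences lay apart, not how far intensities did.

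**Figure D1:**
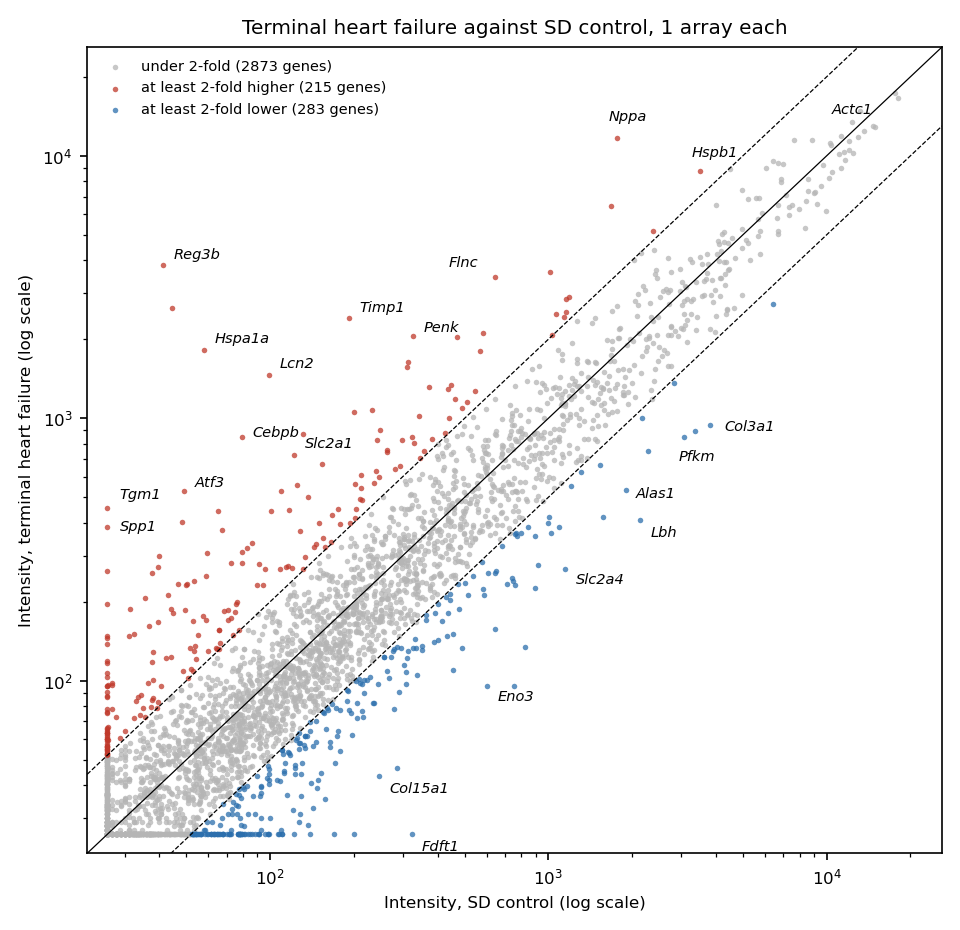
Each point is 1 gene that passed the floor on either array, with its intensity in SD control (x axis) and in terminal heart failure (y axis), both on log scales and with values under 26.0 set to that floor. The solid line marks equal values and the dashed lines 2-fold; 215 genes (red) lie above the upper line, 283 (blue) lie below the lower line, and Reg3b stands farthest from equality.

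Promoters of 5 genes from the acute phase, interferon, antigen presentation and chaperone groups are shown first, since these groups are known for the factors that bind such sequences. They were chosen for a match to such a sequence, not for the size of their difference. Each line gives the 250 bases before the transcription start in RefSeq's annotation of the rat build GRCr8, 5' to 3' on the gene's own strand. Capitals mark a match on either strand, and a match is a description of the letters, not of binding. In Reg3b (chr4:112419526-112419775, plus strand) they mark a STAT site, TTCNNNGAA, from 129 to 121 bases before the start. In Irf7 (chr1:205800024-205800273, minus strand) they mark an interferon-stimulated response element, GAAANNGAAA, from 69 to 60 bases before the start. The same element stands in Tap1 (chr20:4668544-4668793, minus strand) 121 to 112 bases and in B2m (chr3:129549080-129549329, plus strand) 150 to 141 bases before the start. In Hsph1 (chr12:10427118-10427367, plus strand) they mark a heat shock element, GAANNTTCNNGAA, from 36 to 24 bases before the start.
Reg3b: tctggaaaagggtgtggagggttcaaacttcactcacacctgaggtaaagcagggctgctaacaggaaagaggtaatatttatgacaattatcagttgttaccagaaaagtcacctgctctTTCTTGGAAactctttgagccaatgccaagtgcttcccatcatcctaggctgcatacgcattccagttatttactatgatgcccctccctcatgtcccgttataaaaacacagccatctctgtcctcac
Irf7: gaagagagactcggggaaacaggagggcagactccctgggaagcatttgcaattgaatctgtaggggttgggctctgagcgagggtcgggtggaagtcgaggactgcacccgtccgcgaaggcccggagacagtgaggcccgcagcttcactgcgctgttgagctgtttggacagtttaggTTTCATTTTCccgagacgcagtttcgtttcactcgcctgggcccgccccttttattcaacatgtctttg
Tap1: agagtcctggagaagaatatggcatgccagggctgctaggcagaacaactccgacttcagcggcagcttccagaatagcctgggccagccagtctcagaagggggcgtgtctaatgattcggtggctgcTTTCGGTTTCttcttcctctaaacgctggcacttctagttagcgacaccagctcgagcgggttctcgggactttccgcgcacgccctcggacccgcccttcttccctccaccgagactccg
B2m: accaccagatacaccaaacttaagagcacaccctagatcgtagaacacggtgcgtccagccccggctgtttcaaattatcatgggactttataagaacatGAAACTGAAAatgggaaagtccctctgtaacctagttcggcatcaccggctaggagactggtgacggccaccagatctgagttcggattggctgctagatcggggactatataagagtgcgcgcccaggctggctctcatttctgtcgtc
Hsph1: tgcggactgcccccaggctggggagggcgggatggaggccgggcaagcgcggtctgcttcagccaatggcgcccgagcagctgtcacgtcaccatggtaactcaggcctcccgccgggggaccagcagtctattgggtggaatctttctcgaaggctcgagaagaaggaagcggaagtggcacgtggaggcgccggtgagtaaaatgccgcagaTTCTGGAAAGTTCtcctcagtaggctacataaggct

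Reg3b, a lectin secreted in tissue injury and driven in many tissues by cytokines of the interleukin 6 family, was the most different gene of the comparison. Its intensity was 41.2 in SD control, 27.1 in losartan-treated dTGR, 503 in dTGR and 3848 in terminal heart failure. The terminal array was thus 93.4-fold above the control and stood apart from all other arrays. Lcn2, which withholds iron from bacteria, was at 99.1 in SD control, 147 with losartan, 154.5 in dTGR and 1466 in terminal heart failure, 14.8-fold above control. Reg3b was already high in dTGR, whereas Lcn2 there was close to the losartan-treated array. Among 13 measured genes of secreted acute phase proteins, 7 were higher by at least 2-fold and 0 lower, with a list median of 1.10 on the log2 scale beside -0.14 over all genes. Serping1, the inhibitor of the first complement component, went from 263 to 760.5 (2.89-fold), and Serpina3n, a secreted protease inhibitor, from 51.6 to 133 (2.58-fold). Orm1, a plasma carrier glycoprotein, and Reg1a, a relative of Reg3b, were under the floor in SD control and at 146 and 59.8 in terminal heart failure, at least 5.6-fold and 2.3-fold higher. Short of 2-fold were A2m and Serpina1 (log2 differences of -0.35 and -0.48) and Hp, Cp, Crp and Hpx (0.47, 0.23, 0.58 and 0.32). Other probe sets of A2m gave -0.23 to 1.11. Among abundant plasma proteins of the liver, Alb and the fibrinogen chains Fga, Fgb and Fgg were not above the floor on either array. Of 5 liver markers above it 0 were past 2-fold. A STAT site was present in the promoter of 3 of the 9 acute phase genes with an entry (Reg3b, Serpina3n and Reg1a), beside 7.67% of all 33469 rat promoters. A C/EBP site, TTGCNNAA, was present in 4 of 9 (Lcn2, Orm1, Cp and Hpx), beside 9.22% of all promoters.

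In the list of the interleukin 6 family and NF-kappaB signalling, 7 of 17 genes were higher and 1 was lower, with a median of 0.14. The higher ones were receptors, kinases, inhibitors and transcription factors, and no cytokine of the list was past 2-fold. Tnf was under the floor on both arrays. Il6 was under it on both by its brighter probe set, while the other gave 44.1 in terminal heart failure and a value under the floor in SD control, a log2 difference of at least 0.76. Lif, another cytokine of the family, was at 45.9 in SD control, 46.7 with losartan, 107.7 in dTGR and under the floor in terminal heart failure, and Il1b was at 31.1 in SD control and 27.0 in terminal heart failure. Il6st, the shared signalling chain of interleukin 6 receptors, was at 36.5 in SD control, 111 in dTGR and 98.4 in terminal heart failure (2.7-fold above control). Jak2, a kinase bound to such receptors, went from 52.9 to 168.5 (3.19-fold). Socs3, an inhibitor that the pathway itself induces, was 31.0 in SD control, 148.5 in terminal heart failure (4.79-fold) and under the floor on both other arrays. Cebpb, a transcription factor of the acute phase, was at 79.5, 221, 278 and 849 in SD control, dTGR, dTGR with losartan and terminal heart failure, 10.7-fold above control. Its relative Cebpd was 6.84-fold higher (64.8 against 443.5), with log2 differences from -0.31 to 3.12 on its other probe sets. Nfkbia, the inhibitor that holds NF-kappaB in the cytoplasm, was 2.87-fold higher and Tnfrsf1a, a receptor for tumor necrosis factor, 2.29-fold. The lower gene of the list was Cntfr, the receptor chain for ciliary neurotrophic factor (111 against 52.6, 2.12-fold).

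Chemokines went both ways. Ccl2, which attracts monocytes, was at 82.9 in SD control, 111 with losartan, 166 in dTGR and 322 in terminal heart failure, 3.88-fold above control. Ccl5, which attracts T cells, was at 108 in SD control and under the floor in terminal heart failure, at least 4.16-fold lower, and Cx3cl1, a membrane-bound chemokine, was 2.22-fold lower. The list held 1 higher (7.14%) and 2 lower (14.3%) of 14 genes, beside 6.38% and 8.4% of all genes, with a median of 0.13.

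Stress-induced chaperones were led by Hspa1a, the inducible member of the Hsp70 family. Its intensity was 57.9 in SD control, 107 in dTGR, 111 with losartan and 1829 in terminal heart failure. It was 31.6-fold above control, and both dTGR arrays were far nearer to the control than to the terminal array. Hspa1b is a near-identical copy, and the probe set does not separate both. Hmox1, which breaks down heme and is induced by oxidative stress, was at 233, 227, 673 and 1079 in SD control, losartan-treated dTGR, dTGR and terminal heart failure (4.62-fold above control), so dTGR lay between the others and the terminal array. Dnajb1, a partner of Hspa1a, went from 213 to 543 (2.55-fold) and Hsph1, a large chaperone that recharges it, from 155 to 351 (2.27-fold, with 0.21 on the log2 scale by another probe set). Hspb1, a small heat shock protein of muscle, was 2.5-fold higher on its brightest probe set (3498 against 8745), with log2 differences from -1.04 to 2.18 on others. Pdia3, a disulfide isomerase of the endoplasmic reticulum, was 2.62-fold higher, with -0.35 on another probe set. In all, 6 of 27 chaperone genes were higher and 0 lower, but the median was only 0.15, and the mitochondrial chaperones Hspd1, Hspe1 and Hspa9 had log2 differences of -0.57, -0.68 and -0.63. A heat shock element was present for 4 of the 20 genes with a promoter entry (Hspd1, Hspe1, Hsph1 and Serpinh1), beside 0.663% of all promoters. Of these 4 genes only Hsph1 was past 2-fold.

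**Figure D2:**
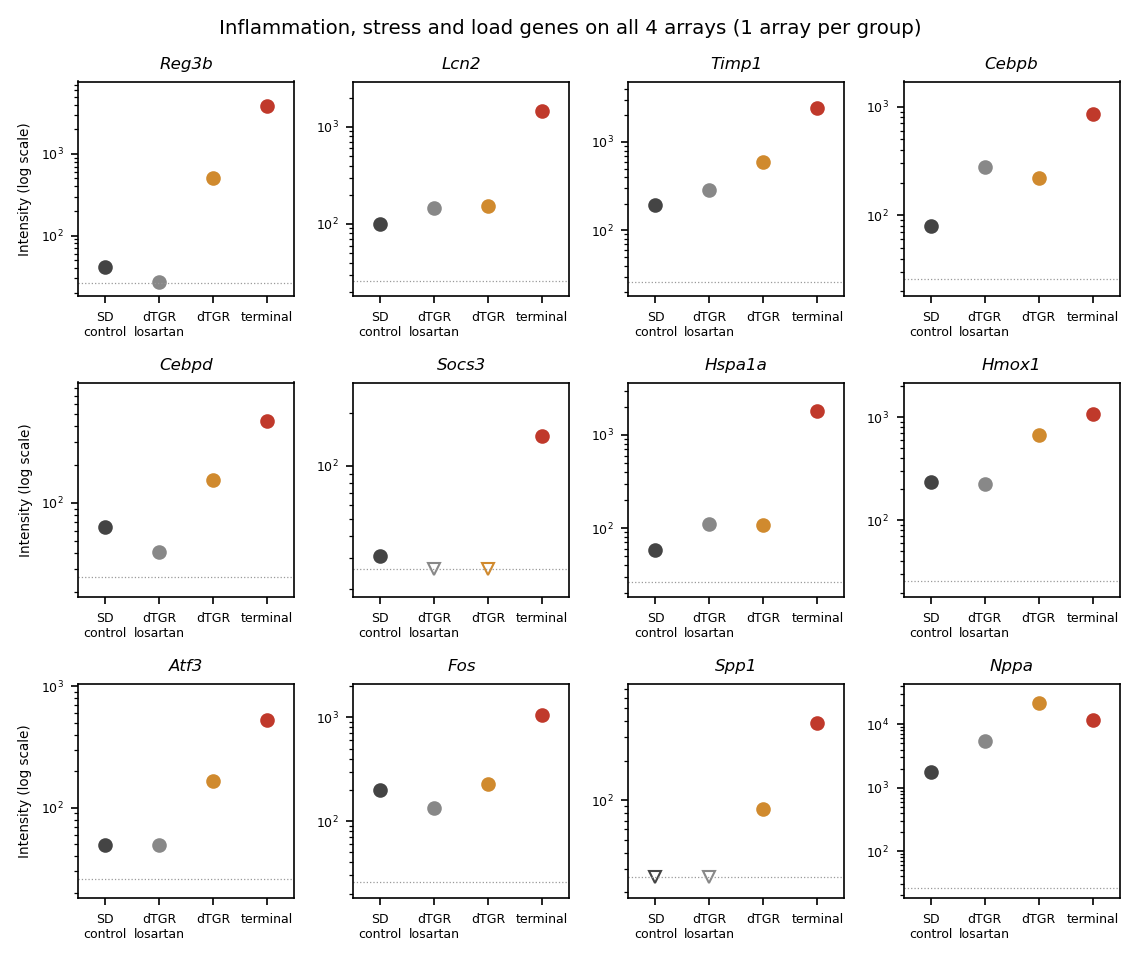
Intensity (log scale) of 12 genes on each of the 4 arrays, 1 array per group, with the floor of 26.0 as a dotted line and values under it as open triangles on that line. The terminal array is highest in 11 panels, and in that of Nppa the dTGR array is (22034.5 against 11729.6 in terminal heart failure).

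Immediate early genes, whose transcripts appear within minutes of a stimulus, were higher in terminal heart failure in 10 of 28 cases and lower in 1, with a median of 0.87. Atf3, a stress-induced repressor, was at 49.2 in SD control, 49.4 with losartan, 168 in dTGR and 528 in terminal heart failure (10.7-fold above control). Fos, a subunit of AP-1, was at 199.9, 133, 227 and 1060.5 on the same arrays (5.31-fold), and 2 more of its probe sets gave log2 differences of 3.31 and 3.44. Only the terminal array stood out for Fos, whereas dTGR was intermediate for Atf3. Myc was 5.85-fold higher (35.4 against 207), Cited2, a coactivator-binding regulator, 5.03-fold (312 against 1569), Dusp6, a phosphatase of ERK, 4.42-fold (36.6 against 162) and Egr1 2.99-fold (342 against 1024). Fosl2 was the lower one, at least 2.53-fold on its brightest probe set, but another probe set gave 0.78. Ifrd1, a regulator induced by growth factors and stress, was under the floor in SD control and at 261 in terminal heart failure, at least 10-fold higher.

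Genes that respond to glucocorticoids were higher in 5 of 10 cases and lower in 1, with a median of 1.09, and 5 of these 10 genes also stand on the immediate early or the interleukin 6 list. Errfi1, an inhibitor of the epidermal growth factor receptor, went from 44.7 to 181 (4.06-fold). Hsd11b1, which makes active glucocorticoid within tissues, went from 569.8 to 1801 (3.16-fold), and Glul, glutamine synthetase, from 1154 to 2853 (2.47-fold, and 2.07 to 2.31 on the log2 scale by its other probe sets). Fkbp4, a cochaperone of steroid receptors, was the lower gene (435 against 181, 2.4-fold).

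Natriuretic peptide and skeletal actin genes, which respond to cardiac load, had terminal values above control and below dTGR. Bright muscle genes were high on the dTGR array in general: the summed intensity of the contraction genes was 126944 in SD control, 117797 in terminal heart failure and 238688 in dTGR, and the 100 brightest probe sets held 32.9%, 31.8% and 46.3% of the signal. The part of this in the distances from dTGR was not tested. Nppa, the precursor of atrial natriuretic peptide, was at 1758 in SD control, 5402 in losartan-treated dTGR, 11729.6 in terminal heart failure and 22034.5 in dTGR. It was 6.67-fold above control in terminal heart failure, where its other probe sets gave log2 differences from 2.72 to 3.57, and it was below dTGR. Nppb, the brain natriuretic peptide precursor, was at 2049 in SD control, 1995.0 in losartan-treated dTGR, 2793 in terminal heart failure and 3805 in dTGR (1.36-fold above control in terminal heart failure). Acta1, the skeletal alpha-actin of the fetal heart, was at 6954 in SD control, 9277 in terminal heart failure and 16097 in dTGR, 1.33-fold above control in terminal heart failure. Csrp3, a Z-disc sensor of stretch, was 2.18-fold higher (2377.5 against 5187) and Tpm2, beta-tropomyosin, 2.07-fold (64.1 against 133). Tgfb1, a profibrotic growth factor, was at 77.3 in SD control and under the floor in terminal heart failure, at least 2.97-fold lower, and Gata4, a cardiac transcription factor, went from 402 to 196 (2.05-fold lower). On the hypertrophy list 3 of 12 genes were thus higher and 2 lower, with a median of 0.47.

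Of 12 contraction genes 1 (8.33%) was at least 2-fold higher and 0 lower, beside 6.38% and 8.4% of all genes. The higher gene was Tcap, which caps titin at the Z disc (1030.4 against 2082, 2.02-fold). The list's median of -0.16 was near that of all genes. Myh6, the alpha heavy chain of adult rat ventricle, was at 10492 in SD control and 8700.1 in terminal heart failure, with log2 differences of -0.27 on this probe set and -1.27 to -1.25 on 2 others. Myh7, the beta heavy chain, was at 12380.1 and 13519.8, with 0.13 on this probe set and 0.97 on another. All 3 probe sets of Myh6 and the brightest of Myh7 carry the maker's mark for sequence shared within a family. Of 15 calcium handling genes 0 were higher and 2 lower: Asph, the gene of junctin and aspartyl hydroxylase (1090.3 against 387, 2.82-fold), and Cacna1c, the L-type calcium channel (444 against 214.5, 2.07-fold). Atp2a2, which pumps calcium back into the sarcoplasmic reticulum, was at 14656 in SD control and 12949 in terminal heart failure (log2 difference -0.18), and its 3 other probe sets gave 0.08 to 0.59.

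The heart's structural scaffold outside the sarcomere had more higher genes. Of 37 genes of the cytoskeleton, Z disc and injury, 10 were higher and 2 lower, with a median of 0.19. Flnc, the muscle filamin that accumulates at damaged sarcomeres, was at 643 in SD control, 803 with losartan, 1043 in dTGR and 3449 in terminal heart failure, 5.37-fold above control. Pdlim5, a scaffold of the Z disc, was at 48.3, 49.4, 101 and 404 on the same arrays (8.37-fold). Both were clearly highest on the terminal array. Msn, a linker of actin to the membrane, was 3.07-fold higher and S100a4, a calcium-binding protein of motile cells, 2.68-fold. Of the lower genes, Cav1, caveolin 1 of endothelium and smooth muscle, was at 894, 507, 400.0 and 227 in SD control, dTGR, dTGR with losartan and terminal heart failure (3.95-fold lower than control). Fhl2, a LIM protein abundant in heart, went from 6447 to 2732 (2.36-fold lower). Of 8 connexin and junction genes 0 were past 2-fold, and Gja1, the main ventricular connexin, was at 278 in SD control and 153.5 in terminal heart failure (1.81-fold lower). Pkp4, a plakophilin of junctions, and Epb41, a protein of the membrane skeleton, were under the floor in SD control and at 149 and 195.5 in terminal heart failure (at least 5.72-fold and 7.52-fold higher). Another probe set of Epb41 was above the floor on both arrays, at 53.7 and 97.9, a log2 difference of 0.87.

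Matrix genes went both ways: Col1a1, Col3a1 and Col15a1 were lower, and collagen-processing enzymes and matricellular proteins were among the higher. Col3a1, a main fibrillar collagen, was at 3811 in SD control, 3448 with losartan, 2227 in dTGR and 947.5 in terminal heart failure, 4.02-fold below control. Col1a1 was at 2163, 1608, 1016 and 1006 on the same arrays (2.15-fold below), so that dTGR and the terminal array were alike for Col1a1 and differed for Col3a1. Col15a1, a collagen of basement membranes, went from 246 to 43.4 (5.66-fold lower). In contrast Lox, which crosslinks collagen, went from 109.8 to 529.9 (4.83-fold higher, with log2 differences of 1.37 to 2.11 on 3 more probe sets). P4ha1 and Plod2, which hydroxylate collagen, were 2.33-fold and 2.24-fold higher, and Col8a1, a short-chain collagen of vessels, 3.62-fold. Of 16 genes of collagens and their processing, 4 were higher and 3 lower, with a median of -0.09.

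Spp1, osteopontin, which macrophages and injured tissue secrete, was under the floor in SD control and with losartan, 86.0 in dTGR and 384 in terminal heart failure, at least 14.8-fold above control. Thbs4, a thrombospondin of the overloaded heart, was at 43.0, 62.9, 228 and 212 in SD control, losartan-treated dTGR, dTGR and terminal heart failure (4.93-fold). Spp1 was higher in terminal heart failure than in dTGR, and Thbs4 was about as high in both. Postn, periostin of activated fibroblasts, was under the floor in SD control and at 104 in terminal heart failure (at least 3.99-fold higher). Sdc4, a cell surface proteoglycan, was 2.27-fold higher, with -0.37 to 1.17 on other probe sets. Lower were Lum, a proteoglycan that spaces collagen fibrils (309 against 97.1, 3.18-fold), Eln, elastin (644 against 257, 2.5-fold), Fbln5, which assembles elastic fibers (2.16-fold), and Sdc3 (2.23-fold). The matrix list held 6 higher and 4 lower of 24 genes, with a median of 0.26; the other higher members were Vcan (2.06-fold) and Ccn1 (at least 2.42-fold).

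Timp1, an inhibitor of matrix metalloproteinases, was at 192.5 in SD control, 285 with losartan, 595 in dTGR and 2415 in terminal heart failure. It was 12.5-fold above control, and another probe set gave a log2 difference of 4.91. Plaur, the urokinase receptor, went from 50.1 to 235 (4.69-fold) and Plat, tissue plasminogen activator, from 167 to 429 (2.58-fold). Among 18 genes of extracellular proteases and their inhibitors above the floor, 3 were higher and 1 lower, with a median of 0.23. The lower one was Mmp11 (2.04-fold), and 8 other metalloproteinase genes on the list (Mmp3, Mmp7, Mmp8, Mmp9, Mmp10, Mmp12, Mmp13 and Mmp16) were not above the floor on either array. Within cells, the lysosomal proteases Ctsl (1014 against 3616, 3.57-fold) and Ctss (383 against 832, 2.17-fold) were higher. They were the only higher genes among 37 of lysosomal and proteasomal proteolysis (5.41%, near the 6.38% of all genes). The muscle ubiquitin ligase Trim63 was 2.02-fold lower on its brightest probe set (474.5 against 234) and 0.20 on the log2 scale on another.

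Antigen presentation had the lowest median of the 35 gene lists, -0.71, and 8 of its 18 genes were lower and 0 higher. Cd74, the invariant chain that guides class II molecules, was at 1532 in SD control, 1380.2 in dTGR, 1986 with losartan and 666 in terminal heart failure (2.3-fold below control), and its 3 other probe sets gave log2 differences from -2.28 to -1.08. RT1-S3, a class I molecule of the rat, was at 334, 206.5, 335 and 133 on the same arrays (2.51-fold). The terminal array was lowest for both. RT1-M3-1 went from 216 to 73.1 (2.95-fold) and RT1-N3 from 77.9 to under the floor (at least 3.0-fold), with the caution that class I genes are close copies which probe sets may not separate. Psmb9, a catalytic subunit of the immunoproteasome, was 2.27-fold lower (118 against 52.1), and Psme2, a subunit of its activator, 2.4-fold (262 against 109). RT1-Ba was 2.13-fold lower (501.5 against 235.2), but its other probe sets gave -0.54 to 0.22, and the losartan array was lower still (219.5). Psmb8 was nearly equal (log2 difference -0.09), and RT1-DMa was the 1 gene of the list above control (0.33). Tap1, a subunit of the transporter that loads class I molecules with peptides, went from 189 to 92.5 (2.04-fold lower, but -0.09 on the log2 scale by another probe set), while B2m, the light chain of class I, differed by -0.12 on the log2 scale (3630.4 against 3347). Both promoters hold the interferon-stimulated response element shown above. That element was present for 6 of the 17 antigen presentation genes with a promoter entry, beside 3.41% of all promoters. Among the 8 lower genes it was present for 4 (RT1-N3, RT1-S3, Tap1 and Psme2).

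Interferon induced genes were lower in 4 of 13 cases and higher in 0, with a median of -0.57. Mx1, an antiviral GTPase, was at 148 in SD control, 157 with losartan, 176 in dTGR and 41.7 in terminal heart failure (3.56-fold below control). Mx2, its relative, was at 143, 70.5, 78.3 and 32.7 on the same arrays (4.38-fold). For Mx1 both dTGR arrays lay near the control, whereas for Mx2 both lay between control and terminal heart failure. Irf7, a transcription factor that amplifies the interferon response, was 2.67-fold lower (351 against 132) and Stat2, part of the complex that binds the response element, 2.46-fold (112 against 45.5). Of the 11 genes with a promoter entry, 6 held the element (Irf7, Oas1a, Eif2ak2, Cxcl10, Ifitm3 and Rsad2), and of the 3 lower genes among the 11 1 did, Irf7.

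**Figure D3:**
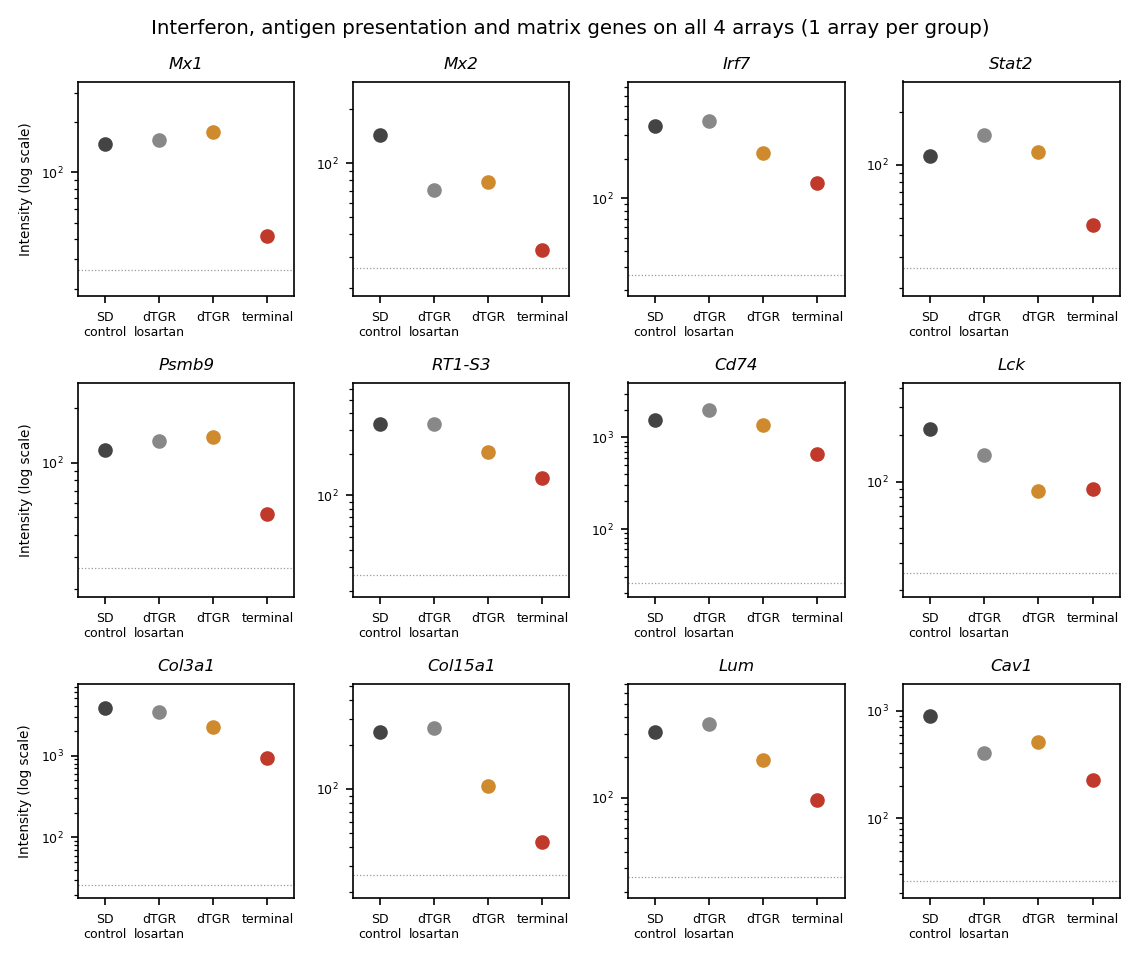
Intensity (log scale) of 12 genes of interferon response, antigen presentation, T cells and matrix on each of the 4 arrays, 1 array per group, with the floor of 26.0 as a dotted line. The terminal array is lowest in all panels but that of Lck, where dTGR (87.6) is just below it (89.7).

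Marker genes of cell types were read beside these lists. In bulk tissue, fewer cells of a type and less RNA per cell cannot be told apart. Heart muscle was borne out by 11 of 11 cardiomyocyte markers on the array being above the floor, with 0 past 2-fold. Their summed intensity was 112555 in SD control and 99863 in terminal heart failure. Of 5 atrial cardiomyocyte markers 4 were above control and 1 was past 2-fold, Nppa, with a median of 0.39. Among them Myl7 went from 102.9 to 183 (0.03 on the log2 scale by another probe set) and Myl4 from under the floor to 32.2. The part of atrial tissue in the Nppa difference was not tested. Macrophage and monocyte markers were higher in 5 of 8 cases and lower in 1, with a median of 1.08. Their summed intensity was 3452 in SD control, 3957 with losartan, 4168 in dTGR and 6047 in terminal heart failure. Lgals3, galectin 3, was at 124.5, 143, 214 and 556 on these arrays (4.47-fold above control), and Lyz2, lysozyme, at 583, 685, 1047 and 2122 (3.64-fold). C1qb and C1qc, chains of complement C1q, were 2.56-fold and 2.06-fold higher. The lower marker was Cd74, described above with antigen presentation, and Csf1r, Ccr2 and Aif1, which define this lineage, were not above the floor. Of 7 neutrophil markers, S100a8 (at least 3.48-fold) and S100a9 (27.1 against 77.9, 2.88-fold) were higher and the other 5 were under the floor on both arrays. T and NK cell markers were lower in 1 of 9 cases (11.1%, near the 8.4% of all genes), Lck, a kinase of T cells (217 against 89.7). Their median was -0.46, and their summed intensity was 620.6 in SD control and 346 in terminal heart failure. The part of macrophage and T cell content in the acute phase, matrix and antigen presentation differences was not tested.

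Fibroblast markers were higher in 1 of 10 cases and lower in 3, and their sum was 16874 in SD control and 16316 in terminal heart failure. That sum joins opposite differences: Dcn was at 7670.0 in SD control and 11484 in terminal heart failure, while Col3a1 and Col1a1 were lower. Endothelial markers were lower in 1 of 5 cases, Kdr, a receptor for vascular growth factors (111 against 54.6, 2.03-fold), and smooth muscle markers in 1 of 6, Myl9 (771 against 356, 2.17-fold). Markers of mast cells (4 genes), of nerve and Schwann cells (7) and of red cells and platelets (5) had 0 past 2-fold. All 4 mast cell markers were below control, with log2 differences from -0.90 to -0.70, and all 5 markers of red cells and platelets were above it, from 0.24 to 0.70. On the skeletal muscle list 1 of 5 genes was higher, Myh1 (64.6 against 132), and 6 were under the floor. Of 6 adipocyte markers Cfd (2.38-fold) and Lipe were higher and Slc2a4 lower.

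**Figure D4:**
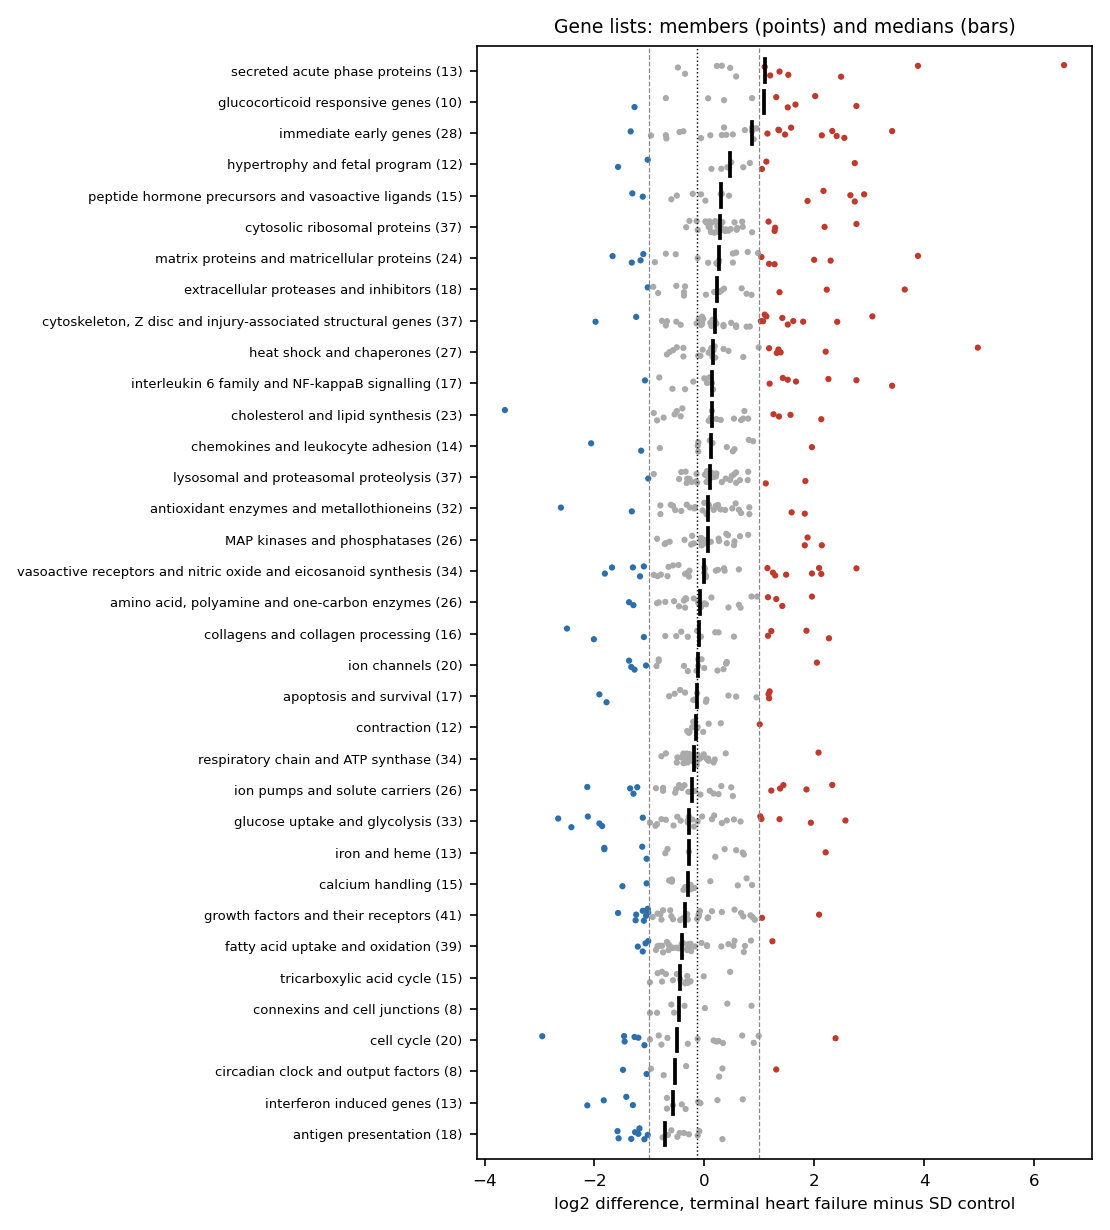
Log2 difference between terminal heart failure and SD control (x axis) for the members of 35 gene lists (y axis, number of genes above the floor in brackets), 1 point per gene, red or blue where at least 2-fold higher or lower; the black bar is the list's median and the dotted line the median of all genes (-0.14). Medians run from 1.10 for secreted acute phase proteins to -0.71 for antigen presentation, and most lists hold genes on both sides.

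The list of glucose uptake and glycolysis held 5 higher and 6 lower of 33 genes, with a median of -0.28. Slc2a4, the insulin-responsive transporter of muscle, was at 1152 in SD control, 839 with losartan, 724 in dTGR and 266 in terminal heart failure (4.33-fold below control). Slc2a1, the insulin-independent transporter found in most cells, was at 122, 221, 120.2 and 727 on the same arrays (5.94-fold above). On the terminal array the 2 transporters thus lay on opposite sides of the control. Pfkm, the muscle phosphofructokinase, went from 3363 to 892 (3.77-fold lower) and Pfkp, the platelet form, from 175 to 452 (2.59-fold higher), while Pfkl, the liver form, had a log2 difference of -0.78. Eno3, the muscle enolase, went from 602 to 95.4, 6.31-fold lower, the largest lower difference among characterised genes with both values measured, while Eno1, the form of most tissues, had a log2 difference of 0.32. Pgam2 and Pgam1, the muscle and general phosphoglycerate mutases, had -0.99 and 0.54, short of 2-fold.

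Glycogen and pyruvate enzymes also differed. Pygb, a glycogen phosphorylase, was 3.62-fold lower (3063 against 846.5), and 2 more probe sets gave -3.08 and -2.06. Pygm, the muscle form, had -0.89. Pfkfb4 and Pfkfb2, which set the level of an activator of phosphofructokinase, were 5.34-fold lower (139 against 26.0) and at least 2.17-fold lower. Pdk4, a kinase that shuts off pyruvate dehydrogenase and is known from fasting, was at 117 in SD control, 80.7 in dTGR, 29.0 with losartan and 448 in terminal heart failure (3.84-fold above control). Prkab1, a subunit of the energy sensor AMPK, was 4.14-fold lower (455 against 109.9), and Slc37a1, an exchanger of glucose phosphate, 4.37-fold (127 against 29.1).

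Fatty acid uptake and oxidation genes had a median of -0.41, beside -0.14 for all genes. Of 39 genes, 29 were below control and 10 above, beside 2022 of all 3371 genes below it, and 4 (10.3%, near the background of 8.4%) were past 2-fold lower against 1 higher. Decr1, which handles unsaturated fatty acids, went from 1311 to 623 (2.1-fold lower), Acadsb, a dehydrogenase of branched short chains, from 76.8 to 33.2 (2.31-fold), Ucp3, a mitochondrial carrier, from 139.7 to 64.2 (2.18-fold) and Ppard, a receptor that drives the pathway, from 363 to 179 (2.03-fold). Acot2, a mitochondrial thioesterase, was the higher one (114 against 270.4, 2.37-fold). Cd36, the fatty acid translocase, was nearly equal at 568 and 506. Of 15 tricarboxylic acid cycle genes 14 were below control, beside that share of all genes, and 0 past 2-fold, with a median of -0.44, and the exception was Idh1, the cytosolic isocitrate dehydrogenase (0.47). Respiratory chain and ATP synthase genes were below control in 26 of 34 cases, beside the same share of all genes, with a median of -0.19, close to that of all genes. Cox5a, a subunit of cytochrome oxidase, was the 1 gene past 2-fold there (44.2 against 187, 4.23-fold higher).

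**Figure D5:**
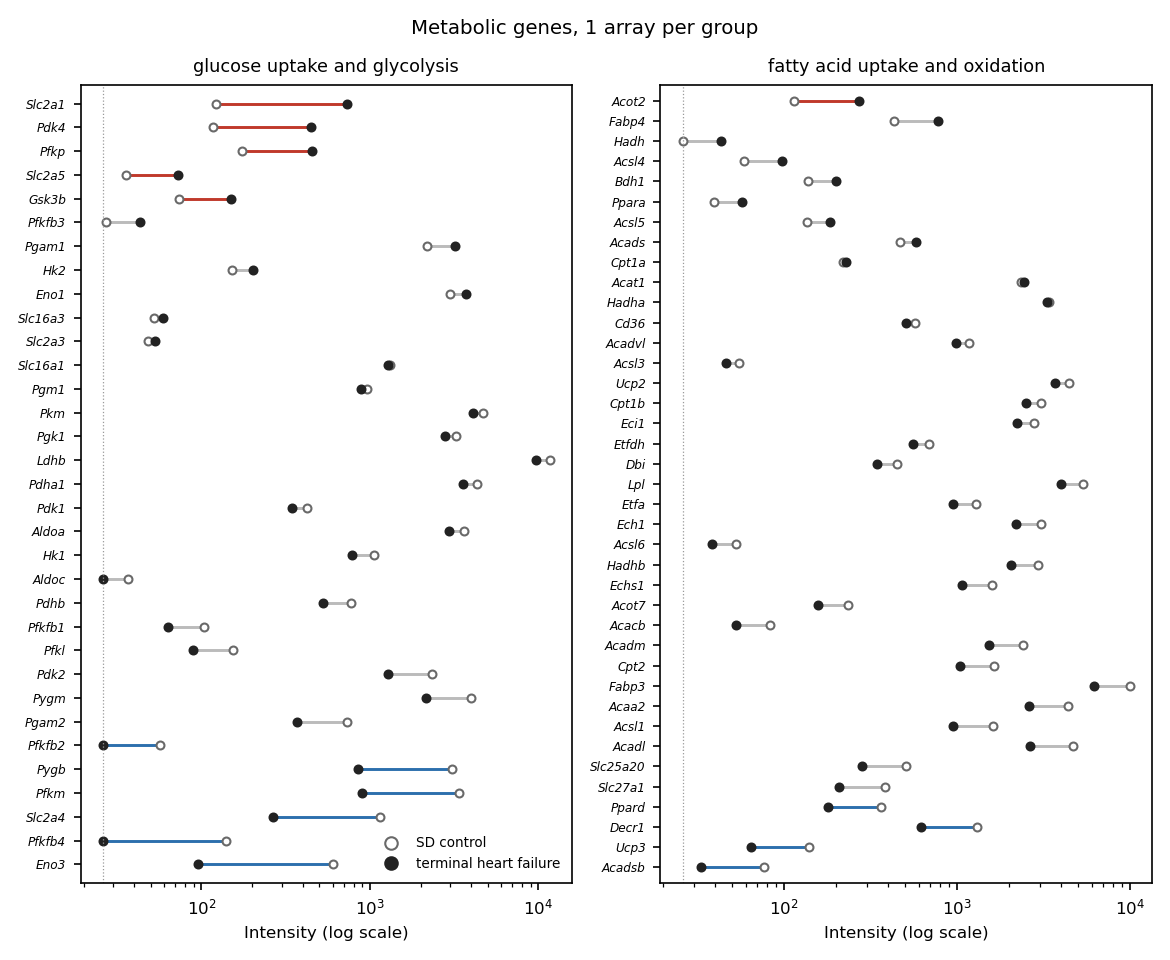
Intensity (log scale) in SD control (open circles) and terminal heart failure (filled circles) of 33 genes of glucose uptake and glycolysis (left) and 39 genes of fatty acid uptake and oxidation (right), ordered by difference, 1 array per group, with the floor of 26.0 dotted. Red and blue lines mark genes at least 2-fold higher or lower: 5 and 6 on the left, 1 and 4 on the right.

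Iron and heme genes were lower in 4 of 13 cases and higher in 1, Hmox1, with a median of -0.28. Alas1, the first enzyme of heme synthesis, was at 1897 in SD control, 1468 with losartan, 1050.0 in dTGR and 536 in terminal heart failure (3.54-fold below control). Tfrc, the transferrin receptor, was at 171, 152, 146 and 48.5 (3.53-fold below). The terminal array was lowest for both. Slc11a2, an iron importer, and Ireb2, an iron-regulated RNA-binding protein, were 2.07-fold and 2.19-fold lower. Among 32 antioxidant and metallothionein genes 2 were higher and 2 lower (6.25% each), near the 6.38% and 8.4% of all genes. Higher were Mgst1, a membrane glutathione transferase (372 against 1318, 3.55-fold), and Txnrd1, thioredoxin reductase (446 against 1341, 3.01-fold). The 2 lower ones were Sod3, the extracellular superoxide dismutase (1001 against 400.3, 2.5-fold), and Gstk1, a glutathione transferase of mitochondria and peroxisomes (822 against 134, 6.12-fold). The brightest probe set of Gstk1 was also low with losartan (40.2). Its other probe set was not, at 331 in SD control, 301 with losartan, 262 in dTGR and 152.5 in terminal heart failure (log2 difference -1.12). The list's median was 0.07.

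Peptide hormone genes were higher in 5 of 15 cases and lower in 2, with a median of 0.30. Trh, the precursor of thyrotropin-releasing hormone, was at 40 in SD control and 300.2 in terminal heart failure (7.5-fold), while dTGR was under the floor and losartan-treated dTGR at 29.1. Its other probe set was at 27.0, 34.7, 48.7 and 141 in SD control, losartan-treated dTGR, dTGR and terminal heart failure. Penk, the enkephalin precursor, was at 327, 863, 3002 and 2065 in SD control, losartan-treated dTGR, dTGR and terminal heart failure (6.32-fold above control), with the dTGR array highest as for Nppa. The 2 peptides thus had different orders: Trh was highest on the terminal array by both probe sets. Adm, the vasodilator adrenomedullin, was 4.49-fold higher (53.2 against 239) and Gal, galanin, was under the floor in SD control and at 95.5 in terminal heart failure (at least 3.67-fold). Lower were Igf1, insulin-like growth factor (444 against 204, 2.18-fold, with -0.48 and -0.15 on 2 other probe sets), and Edn3 (at least 2.48-fold).

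Vasoactive receptors and enzymes went both ways, with 8 higher and 5 lower of 34 genes and a median of 0.00. Ace, the angiotensin-converting enzyme, was at 86.0 in SD control, 95.1 with losartan, 128 in dTGR and 334 in terminal heart failure (3.88-fold above control). Agtr1a, the receptor that losartan blocks, was at 45.0 in SD control and under the floor in terminal heart failure, short of a 2-fold bound. Nos2 and Nos3, nitric oxide synthases, were short of 2-fold on their brightest probe sets, and their probe sets lay apart. Nos2 had a log2 difference of -0.47 on the brightest, -1.64 on another (111.5 against 35.7) and a bound of -0.66 on 1 more, and Nos3 had 0.37 and from -0.79 to 1.18 on 4 others. Several enzymes that release or convert arachidonic acid were higher: Pla2g4a, a cytosolic phospholipase (101 against 442, 4.38-fold), Plb1, phospholipase B (39.6 against 271, 6.83-fold), Ptgds, prostaglandin D synthase (58.9 against 250.2, 4.25-fold), Alox15 (2.82-fold) and Alox5ap (2.44-fold). The 5 lower genes were Adra1b, an alpha adrenergic receptor (336 against 105, 3.19-fold), Adrb1 (at least 2.15-fold), Adrb3 (2.46-fold), Ptger3, a prostaglandin receptor (at least 3.52-fold, with -0.26 on another probe set), and Gucy1b1, a subunit of the nitric oxide receptor (2.25-fold).

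Ion channels were lower in 4 of 20 cases and higher in 1, with a median of -0.12. Kcnj11, the pore of the ATP-sensitive potassium channel, went from 892 to 356 (2.51-fold lower). Kcnq1 and Kcne1, which together form a slow repolarising channel, went apart: Kcnq1 from 162 to 77.3 (2.09-fold lower) and Kcne1 from under the floor to 107 (at least 4.13-fold higher). Kcnd2, a channel of the transient outward current, was at least 2.41-fold lower and P2rx4, an ATP-gated channel, 2.59-fold. Of 26 pumps and solute carriers 5 were higher and 4 lower. Among the higher were carriers of amino acids and taurine: Slc6a6 (46.6 against 234, 5.03-fold), Slc3a2 (248 against 899, 3.62-fold), its partner Slc7a5 (2.6-fold) and Slc1a1 (2.71-fold, with 0.25 and 1.75 on 2 other probe sets). The fifth was Aqp1, a water channel of endothelium and red cells (1067.5 against 2489.8, 2.33-fold). Besides Slc37a1, the lower ones were Slc29a1, a nucleoside carrier (2.54-fold), Slc22a3 (2.44-fold, with -0.16 on another probe set) and Atp1b2, a sodium pump subunit (2.34-fold, with 0.58 and 1.09 on 2 other probe sets).

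Growth factors and their receptors were lower in 9 of 41 cases and higher in 2, with a median of -0.35. Higher were Hbegf, a ligand of the epidermal growth factor receptor (39.5 against 168, 4.26-fold), and Bmp4 (at least 2.07-fold). The lower ones included Vegfb (766 against 367, 2.09-fold), Gas6 (363 against 169.8, 2.14-fold), Pdgfa (2.38-fold) and Ntrk3 (at least 2.37-fold), besides Igf1, Tgfb1 and Kdr. Cell cycle genes were lower in 6 of 20 cases and higher in 1, with a median of -0.49, but when genes with a bound were left out the list's median was 0.03 above that of all genes. Ccne1, a cyclin of S phase entry, was at 200.5 in SD control and under the floor in terminal heart failure (at least 7.71-fold lower), with -0.50 on another probe set. Plk1, a mitotic kinase, went from 176 to 64.4 (2.73-fold lower) and Top2a, a topoisomerase of dividing cells, from 127 to 55.2 (2.29-fold). Cdk1 and Cdk5 were at least 2.41-fold and 2.12-fold lower. The D-type cyclins went apart, with Ccnd2 5.23-fold higher (313 against 1635; 0.35 on another probe set) and Ccnd1 2.75-fold lower (388 against 141), although the other probe sets of Ccnd1 gave -1.25 to 0.05.

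Ribosomal protein genes were above control in 33 of 37 cases, beside 1345 of all 3371 genes (39.9%), with 5 higher, 0 lower and a median of 0.28. Rpl3 was 2.44-fold higher (1188 against 2899), and Rps24 went from 143 to 323 (2.25-fold). Rpl17 (37.6 against 257, 6.83-fold), Rpl30 and Rpl5 (at least 4.58-fold and 2.43-fold) were also past 2-fold, and ribosomal protein genes have many processed copies in the genome that a probe set may not separate. Of 26 MAP kinase and phosphatase genes 3 were higher, Dusp6, Ptpn2 (3.55-fold) and Map3k12 (at least 3.68-fold), and 0 lower, with a median of 0.06; Map3k12 was far higher with losartan (539.6). In amino acid, polyamine and one-carbon metabolism 4 of 26 were higher and 2 lower (median -0.08). Amd1, which feeds polyamine synthesis, was 3.89-fold higher (72.6 against 282). The monoamine oxidases lay apart, with Maoa 2.24-fold higher (488.5 against 1095) and Maob at least 2.58-fold lower, and the other members past 2-fold were Glul and Cdo1 (2.67-fold higher) and Mthfd1 (2.44-fold lower).

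Cholesterol and lipid synthesis held 4 higher and 1 lower of 23 genes, with a median of 0.14. Fdft1, squalene synthase, was at 322.5 in SD control, 368 with losartan, 149.7 in dTGR and under the floor in terminal heart failure. It was at least 12.4-fold lower, the largest lower bound of the comparison, while 3 other probe sets gave smaller log2 differences of -1.45 to -0.75. Idi1, an earlier enzyme of the same route, was 2.57-fold higher, and Scarb1, a lipoprotein receptor, 2.39-fold (72.5 against 173.5), with -0.53 and 0.05 on 2 other probe sets. Plin2, which coats lipid droplets, was 2.97-fold higher (436 against 1293). Lipe, the hormone-sensitive lipase, was 4.38-fold higher (153 against 672), with 0.18 on another probe set. Of 17 apoptosis genes 3 were higher and 2 lower: Bcl2l1, a survival protein (2.25-fold), Tnfrsf1a and Pawr (at least 2.27-fold) were higher, Bcl2l11, a death-promoting relative, was at least 3.77-fold lower, and Casp2 was 3.43-fold lower with -1.26 and 0.06 on 2 other probe sets. Clock output factors Dbp (213 against 76.4, 2.79-fold) and Tef (2.07-fold) were lower and Per2, a clock repressor, at least 2.48-fold higher among 8 genes of the circadian list. The labels do not give the time of day of sampling.

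The remaining genes with the largest differences belong to no fixed list. Kctd13, a ubiquitin ligase adaptor, was 59.4-fold higher on its brightest probe set (44.5 against 2643), but 2 others gave log2 differences of -0.85 and -0.41, so its direction was not settled. Tgm1, a transglutaminase that crosslinks proteins, was under the floor in SD control and with losartan, 71.3 in dTGR and 456.5 in terminal heart failure, at least 17.6-fold above control and the largest higher bound. Sult1a1, a phenol sulfotransferase, went from 131 to 869 (6.61-fold, and 2.87 on the log2 scale by another probe set), and Ncam1, a neural cell adhesion molecule, from 31.4 to 187 (5.97-fold, but 0.21 by another). On the lower side Lbh, a regulator of limb and heart development, was at 2137 in SD control, 1378 in dTGR, 1151 with losartan and 409 in terminal heart failure (5.23-fold below control). Ptpn3, a tyrosine phosphatase, went from 642 to 157 (4.09-fold lower) and Smim5, a small membrane protein, from 286 to 46.4 (6.16-fold). Tmem218, Bmyc, Adprh and Adgrl1 were 4.88-fold, 4.45-fold, 4.25-fold and 4.13-fold lower, all with terminal values close to the floor. Polr2a, the large subunit of RNA polymerase II, Rab3a, a GTPase of secretory vesicles, and Lad1 were under the floor on the terminal array alone, at least 6.51-fold, 4.7-fold and 4.23-fold lower than control.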

How the data were processed

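Total RNA of the rat left ventricle was measured on 1 array per group. The authors deposited a linear intensity for every probe set on each array, already brought to a common mean. No label or header used here names the software behind them. Among 35196 values, 13625 of the 15281 that were at least 1 and under 32 read as a day and month, which moves a value by less than 1 unit. The deposited values had nearly the same trimmed mean on each array (2% left out per side) and were not scaled further for the main results. Values under the 40th percentile (26.0) were raised to it, and differences were taken on the log2 scale (Python 3.11.15, pandas 2.3.3, numpy 2.4.6, and limma 3.58.1 in R 4.3.3 for the normalization alternatives). Control probe sets (59) and, in gene counts, probe sets with no gene (1426) or several (308) were left out. The other 7006 probe sets stood for 4736 genes by the platform annotation, and the identifiers of 6985 of them matched RefSeq's table. Unused columns of per-sample values numbered 0.

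With 1 array per group no test was run, and the counting was tested on simulated data. The number of arrays limits the precision. The members, the 35 gene lists and the 15 marker lists were chosen with earlier results of these data known, so no list is independent evidence. The rule for named genes took the 15 largest differences in each direction measured on both arrays with no opposing probe set, the 5 largest bounds in each direction, up to 6 members per list and direction past 2-fold, and key members such as Nppa, Il6 and Gja1 whatever their value. Tap1, B2m, Hspd1, Hspe1, Hspa9, Lif, Eno1, Pgam1, Pgam2, Pfkl, Pygm, Idh1 and Kctd13 were named after their values were seen. So were RT1-Ba, RT1-DMa, Psmb8, Myl4, Myl7, Dcn, A2m, Serpina1, Hp, Cp, Crp and Hpx. Promoters are RefSeq's of GRCr8, and motifs were searched in the 250 bases before the start, on both strands. In list counts a gene held a motif if any of its promoter entries did. The shares of all promoters count single entries, so the 2 measures are not alike.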

Additional observations from a re-analysis of the deposited data

Results flagged for a closer look

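Control probe sets of the array that are built against the sense strand of actin and Gapdh, and so take no part in the gene counts, gave signal on the terminal array. The 3 sense-strand probe sets of beta-actin gave 66.5 (3' part), 77.7 (middle) and 13.08 (5' part) in terminal heart failure, against 4.07, 5.09 and 4.09 in SD control. Those of Gapdh gave 107.4 (3' part), 121 (5' part) and 174.5 (middle) in terminal heart failure, against 19.09, 25.01 and 64.6 in SD control. All but the 5' part of beta-actin were above the floor of 26.0 and at least 2-fold above control. The dTGR array lay between 86.2 and 98.6 and the losartan array between 39.1 and 78.5 for the Gapdh set, so that the control array was lowest of the 4 on each of these probe sets. The part of such signal in the gene differences was not tested.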

How the results depend on the processing

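The counts of 2-fold genes (215 higher, 283 lower) and probe sets (437, 489) stayed within 1.5 times under scaling to the same median, quantile normalization, cyclic loess, a pseudocount of 16, the median of probe sets (genes alone), only genes measured on both arrays, low values read as 1 decimal, and only probe sets with no mark for shared sequence (genes alone), the last 2 chosen after seeing the data. With the floor at the 25th percentile they were 350 and 455 genes and 742 and 826 probe sets. At the 60th percentile they were 142 and 141 genes and 276 and 247 probe sets, and at 3-fold 82 and 73 genes and 183 and 123 probe sets, where fewer features qualify. List medians relative to all genes moved. For the cell cycle -0.35 became -0.10 (quantile), -0.09 (loess), -0.15 and -0.14 (25th and 60th percentile), -0.23 (median of probe sets), -0.14 (no shared sequence) and 0.03 (measured on both arrays). For peptide hormones 0.43 became 0.30 (same median), 0.25 and 0.59 (25th and 60th percentile), 0.28 (median of probe sets) and 0.18 (no shared sequence). For acute phase 1.24 became 0.72 (25th percentile, and measured on both arrays), 0.98 (pseudocount) and 0.94 (no shared sequence); for the interleukin 6 list 0.28 became 0.41 and 1.01 (25th and 60th percentile) and 0.81 (both arrays); for glucocorticoid genes 1.23 became 1.01 (25th percentile) and 1.41 (no shared sequence). At the 25th percentile matrix proteins had 0.53 (from 0.40) and growth factors -0.10 (from -0.21), and at the 60th immediate early genes had 0.88 (from 1.01). With the median of probe sets antigen presentation had -0.44 (from -0.57) and proteases 0.24 (from 0.37). Directions reversed for vasoactive genes (0.14 to -0.13 at the 25th percentile, -0.12 with no shared sequence), T and NK markers (-0.32 to 0.04 at the 60th), Atp1b2 (0.58, median of probe sets) and, with no shared sequence, Pdia3 (-0.35), Hspb1 (-1.04) and Scarb1 (-0.53). The cause was not tested. Of 2054 values of named genes, 1925 moved by less than the spread between probe sets and 4 reversed. Of the 1925, 177 came from keeping genes measured on both arrays, which leaves a gene's difference unchanged. Another 215 came from low values read as 1 decimal, which alters only values under 32. Those 2 settings could thus hardly move a named gene. No paired analysis was possible because each group has 1 array and no test was run; leaving out an array was not possible for the same reason. A signal near the floor limits 116 of the 498 gene differences to bounds.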

Other observations

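Several genes outside the fixed lists also stood out, and they were chosen after their values were seen. Reg3g, a close relative of Reg3b, was at 59.2 in SD control, 65.4 in losartan-treated dTGR, 99.2 in dTGR and 306 in terminal heart failure, 5.17-fold above control and highest on the terminal array as Reg3b was. Fdx1, the ferredoxin that feeds electrons to mitochondrial steroid-making enzymes, was at 469 in SD control, 549 with losartan, 538.5 in dTGR and 2045 in terminal heart failure (4.36-fold), and another of its probe sets gave a log2 difference of 3.02. Klhl41, a kelch protein of striated muscle, went from 67.1 to 375.5 (5.60-fold), and Mybpc2, the fast skeletal form of myosin-binding protein C, from under the floor to 117 (at least 4.50-fold). Ybx1, an RNA-binding protein, was 4.65-fold higher (232 in terminal heart failure).

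On the lower side, Ctla4, an inhibitory receptor of T cells, was at 106 in SD control and 122 in dTGR and under the floor both with losartan and in terminal heart failure (at least 4.09-fold below control). Mlst8, a subunit of both mTOR complexes, was 4.06-fold lower (109.8 against 27.1).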
